A study of Mus musculus with 6 samples.

Results

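Neutrophils of an orthotopic mouse brain tumor were divided by their transcript of Cd274, the gene of the checkpoint ligand PD-L1, and cells rich in it were compared with cells in which none was counted. The cells came from the 2 libraries of neutrophils sorted from the tumor, among 6 libraries and 37490 cell barcodes in the series. A barcode was kept as a neutrophil with at least 200 genes, at most 10% mitochondrial UMIs (unique molecular identifiers, counted transcripts), at least 0.5% of UMIs from S100a8 and S100a9 and under 0.3% from C1qa, C1qb and C1qc. This left 3317 of 4158 barcodes in tumor library 1 and 5674 of 6612 in library 2, 8991 in all. The classes were chosen by the measured Cd274 UMIs alone: cells with 3 or more are called Cd274-rich here (2724 cells) and cells with 0 Cd274-negative (4346 cells). Within each library, as many negative as rich cells were drawn from each of 20 bins of total UMIs, giving 945 cells of each class in library 1 and 1522 in library 2. The median depth was then 3911 and 3904 UMIs per cell in rich and negative cells of library 1, and 3958.5 and 3949 in library 2. Counts were summed over the cells of a class in a library, with Cd274 itself left out, so each comparison rests on 4 sums from 2 libraries.

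All mice had received 10000 cells of SB28, a mouse glioma line, and tissue was taken on day 18. Blood was drawn before the mice were perfused with saline, and tumors were collected after it. The 3 groups, with 2 libraries each, were neutrophils sorted by flow cytometry from the tumor, neutrophils sorted from the blood of tumor-bearing mice, and all CD45+ (leukocyte) cells of the tumor. The labels give no strain, age, sex or other treatment, and no mice without a tumor were among the samples. They do not say whether the libraries came from separate mice or pools. A p-value here sets the difference between the classes against a spread estimated from the 2 libraries of a group, which may be technical. With 1 or 2 residual degrees of freedom, this spread leans on a trend over all genes. It is not a measure of how much a single gene varied between libraries. Kept cells held a median of 3891 and 3901 UMIs of sorted tumor neutrophils, 4277 and 4006.5 of sorted blood neutrophils, and 1702 and 2634 of CD45+ libraries. The tumor libraries shared 4 barcodes of kept cells, and no pair of the 6 libraries shared more than 9.

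PD-L1 on a cell's surface binds PD-1 on T cells and dampens their activation. In myeloid cells its gene is known to be induced by interferons through JAK kinases and STAT transcription factors, and by hypoxia through hypoxia-inducible factors. Neutrophils leave the bone marrow with granules already filled, circulate briefly, and in tumors can live longer and take up other expression programs. The second PD-1 ligand, PD-L2, is encoded by Pdcd1lg2, which lies next to Cd274.

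Cd274 (ENSMUSG00000016496) lies on the plus strand of mouse chromosome 19, at chr19:29367455-29388095 in build mm10. Pdcd1lg2 (ENSMUSG00000016498) follows it on the same strand at chr19:29410919-29471161, 22824 bases further on. Upstream sequences of both ligand genes, of 2 interferon-stimulated genes and of 2 hypoxia and glycolysis genes that differed between the classes are shown, because these are the groups the comparison turned on. Each is the RefSeq window of 250 bases before the transcript start (GRCm38.p6), written 5′ to 3′ on the gene's strand. For Cd274 only the last 47 bases of the window are printed, those after the last exon annotated in it. Capitals mark matches on either strand to ACGTG or GCGTG (the core of the hypoxia response element), GAAA followed by any 2 bases and GAAA again (the interferon-stimulated response element), TTCNNNGAA (the gamma-activated site), GGGA followed by any base and TTTCC (an NF-kB site) and TGANTCA (an AP-1 site).
Cd274, chr19:29367391-29367437, plus strand: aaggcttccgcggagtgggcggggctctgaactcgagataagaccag
Pdcd1lg2, chr19:29410669-29410918, plus strand: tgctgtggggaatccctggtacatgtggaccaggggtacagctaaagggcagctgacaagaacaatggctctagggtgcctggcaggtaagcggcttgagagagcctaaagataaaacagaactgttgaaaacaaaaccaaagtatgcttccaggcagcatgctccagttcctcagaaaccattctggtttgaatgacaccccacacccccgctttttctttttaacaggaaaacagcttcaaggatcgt
Rsad2, chr12:26456453-26456702, minus strand: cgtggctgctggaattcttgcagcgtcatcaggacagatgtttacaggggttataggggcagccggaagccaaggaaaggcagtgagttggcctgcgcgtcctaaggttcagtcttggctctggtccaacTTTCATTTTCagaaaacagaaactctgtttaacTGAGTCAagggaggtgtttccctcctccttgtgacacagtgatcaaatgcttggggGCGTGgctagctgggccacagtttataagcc
Cxcl10, chr5:92348890-92349139, minus strand: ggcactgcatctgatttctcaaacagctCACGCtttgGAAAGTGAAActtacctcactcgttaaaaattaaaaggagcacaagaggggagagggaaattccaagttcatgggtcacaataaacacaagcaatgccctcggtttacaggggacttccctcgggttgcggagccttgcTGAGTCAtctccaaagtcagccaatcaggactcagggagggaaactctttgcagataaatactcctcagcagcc
P4ha1, chr10:59323046-59323295, plus strand: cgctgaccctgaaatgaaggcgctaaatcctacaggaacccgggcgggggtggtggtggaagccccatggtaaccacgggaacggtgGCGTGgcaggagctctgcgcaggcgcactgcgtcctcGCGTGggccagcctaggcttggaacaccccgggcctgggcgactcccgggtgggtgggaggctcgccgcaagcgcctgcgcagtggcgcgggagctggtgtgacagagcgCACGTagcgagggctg
Ldha, chr7:46845554-46845803, plus strand: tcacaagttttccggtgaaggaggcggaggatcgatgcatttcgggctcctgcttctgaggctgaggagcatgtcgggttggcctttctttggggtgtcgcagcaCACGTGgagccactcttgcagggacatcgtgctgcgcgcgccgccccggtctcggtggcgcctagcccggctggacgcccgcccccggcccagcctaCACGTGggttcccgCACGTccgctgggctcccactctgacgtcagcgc

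The Cd274 window held 1 match, a hypoxia core (GCGTG) at position -201 from the start, outside the bases printed. The Rsad2 window held the interferon-stimulated element at position -120, an AP-1 site at -87 and a hypoxia core at -31. The Cxcl10 window held the same 3 kinds of match at -213, -74 and -222. P4ha1 had 3 hypoxia cores, and the Ldha window shown had 5 matches to that core, at -145, -144, -48, -47 and -34. The matches at -145 and -144 are the same CACGTG read on both strands, as are those at -48 and -47. None of the 5 motifs occurred in the Pdcd1lg2 window. Of 32851 windows of this length in the RefSeq table, 38.6% held a hypoxia core and 2.98% the interferon-stimulated element. Among interferon-stimulated genes that rose in rich cells and had a window, 15 of 25 held the interferon-stimulated element. The hypoxia core was found for 19 of 19 hypoxia response genes, 11 of 13 glycolysis genes and 7 of 25 interferon-stimulated genes that rose. Of genes that fell, it was found for 2 of 13 granule, 6 of 9 respiratory chain and 6 of 9 AP-1 and immediate early genes. A gene counts here if any of its windows holds the letters, so these counts are not directly comparable with the shares of windows. A match is a description of the letters, not evidence of binding.

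The Cd274 count itself chose the cells and was not tested. Rich cells made up 30.6% of kept cells in tumor library 1 (95% Clopper-Pearson interval 29.1 to 32.2, counting error only) and 30.1% in library 2 (28.9 to 31.3). Negative cells made up 49.7% and 47.5%. The highest count in a cell was 83 Cd274 UMIs in library 1 and 56 in library 2, and the median among matched rich cells was 6 in each. In the CD45+ libraries, which are other libraries, cells with at least 3 UMIs of T or NK cell markers, under 0.5% S100a8 and S100a9 and no C1q UMI had 3 or more Cd274 UMIs in 9.64% of 249 cells and 8.82% of 102, at median depths of 3618 and 5197 UMIs. Lymphocytes can express Cd274, and free RNA in the sorted libraries was not measured. In blood 26 of 3029 and 60 of 5192 neutrophils reached 3 UMIs.

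**Figure D1:**
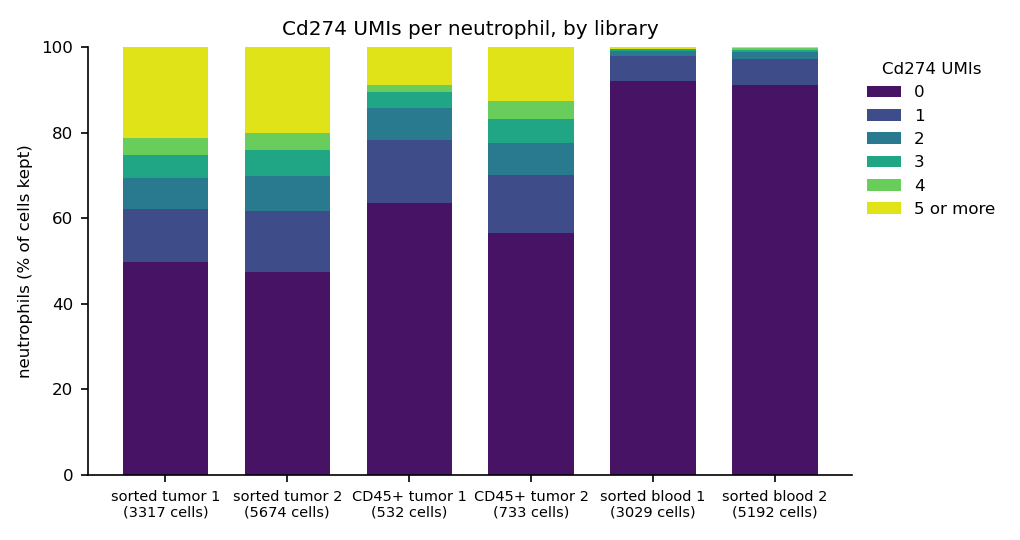
Share of kept neutrophils (percent, vertical axis) by number of Cd274 UMIs in the cell (colors), for 2 libraries each of sorted tumor, CD45+ tumor and sorted blood neutrophils, with the number of cells under each bar. Both sorted tumor libraries have 30.6% and 30.1% of cells at 3 or more UMIs, and over 90% of blood neutrophils have 0. CD45+ neutrophils had fewer UMIs per cell, so their shares are not directly comparable with those of the sorted libraries.

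The classes differed across much of the transcriptome. Of 9769 genes tested with edgeR's quasi-likelihood test, with library as a block, 1742 (17.8%) were higher and 1167 (11.9%) lower in Cd274-rich cells at a Benjamini-Hochberg adjusted p under 0.05, the threshold used throughout. Together they made up 29.8%. The change was at least 2-fold for 686 of the higher and 261 of the lower genes. The median log2 change of all genes tested was -0.03. The scaling factors added 0.18 and 0.13 to the log2 changes of libraries 1 and 2. Without them the median was -0.18 and the split was 1317 higher and 1981 lower, so small changes near 0 depend on the scaling. With cells that held any UMI of macrophage, monocyte, microglia or dendritic cell markers left out, 881 genes were higher and 457 lower, over fewer cells.

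Among the ligands that act on T cells or phagocytes, Pdcd1lg2 stood out by size. It was counted at 182 and 200 CPM (counts scaled so that all genes of a class's sum add to 1000000) in rich cells of libraries 1 and 2, and at 40.3 and 27.4 in negative cells. Both rich sums lay above both negative sums, and the log2 change was 2.69 ± 0.14 (SE), or 6.45-fold (adjusted p = 3.97e-08, edgeR). Of 15 checkpoint and costimulatory ligand genes tested, 4 rose and 2 fell, against 17.8% and 11.9% of all genes, with a median log2 change of 0.06. Lgals3 and Lgals9, which encode the galectins 3 and 9, rose by 1.23 and 0.95, and Sirpa, the phagocyte receptor for CD47, by 0.40. Cd47, the "do not eat me" signal, fell by 0.30 on the log2 scale and Pilra, an inhibitory receptor, by 0.56. The CD28 and CTLA-4 ligand Cd80 stood at 628 and 590 CPM in rich and 748 and 695 in negative cells, a log2 change of -0.09 ± 0.08 that did not pass the test. It passed as lower, at -0.24, without scaling factors. Cd86, the partner ligand, was at -0.05 ± 0.13.

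The machinery that induces or stabilises PD-L1 changed in part. Of 19 listed genes 17 had enough counts to be tested. Of these 7 rose and 1 fell, against 17.8% and 11.9% of all genes (median log2 change 0.17). Members of the interferon signalling complex rose: Stat2 by 0.94 and Irf9 by 0.82, with the kinase Jak1 at 0.50 and the receptor chain Ifnar2 at 0.35. Stat2 was at 38.8 and 34.2 CPM in rich and 24.7 and 18.3 in negative cells. Socs1, the feedback inhibitor of JAK kinases, rose by 0.97, from 22.9 and 29.9 to 40.3 and 53.1 CPM. The kinase Jak2 (0.13 ± 0.08), Stat3 (-0.02 ± 0.08) and the interferon-gamma receptor chain Ifngr1 (-0.19 ± 0.10) did not pass.

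Irf1, the transcription factor through which interferon-gamma induces Cd274, was at 157 and 119 CPM in rich and 152 and 97.9 in negative cells. Its log2 change was 0.33 ± 0.09 (adjusted p = 0.0194, edgeR); rich and negative values overlapped between libraries, and the call was lost with DESeq2, without matching on depth (0.22), without the library block, without scaling factors (0.17) and without cells that held phagocyte marker UMIs (0.05). Cmtm6, whose protein keeps PD-L1 from being degraded, fell by 0.49 ± 0.09 on the log2 scale. It was at 112 and 99.0 CPM in rich and 174 and 155 in negative cells, which did not overlap.

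Interferon-stimulated genes rose almost as a whole. Of 31 in the files 28 were tested (Ifi44, Cxcl9 and Iigp1 had too few counts). Of these 27 rose and 1 fell, against 17.8% and 11.9% of all genes. The median log2 change was 1.25 (-0.03 for all genes). Rsad2, which encodes the antiviral enzyme viperin, was at 984 and 893 CPM in rich and 129 and 241 in negative cells. That is a log2 change of 2.53 ± 0.18, and 5.79-fold. Gbp5, a guanylate-binding protein gene, rose by 2.87, from 5.04 and 5.67 to 34.8 and 36.3 CPM. Ifit2 and Ifit1, inhibitors of viral translation, rose by 2.75 and 2.03, and the ubiquitin-like Isg15 by 1.12. Cxcl10, the chemokine that draws CXCR3-bearing T cells, rose by 2.42 ± 0.12, from 43.4 and 26.5 to 181 and 145 CPM. Few cells carried most of it: the 10 cells with most Cxcl10 held 62.5% and 66.6% of its UMIs in the rich sums. For Gbp5 the 10 top cells held 68.8% and 60.2%, and for Ifit2 46.3% and 44.2%. Any Gbp5 UMI was found in 4.13% and 3.55% of rich cells, and any Rsad2 UMI in 34.0% and 34.9%. The member that fell was Ifitm1, a membrane antiviral gene, at 600 and 536 in rich against 993 and 866 in negative cells. With DESeq2, or without the library block, 23 of the 28 rose.

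Hypoxia response genes formed the other large group. Of 31 listed 25 were tested, and 24 rose, against 17.8% of all genes, with a median log2 change of 1.29. P4ha1, a subunit of collagen prolyl hydroxylase, was at 701 and 804 CPM in rich and 179 and 225 in negative cells, a log2 change of 2.06 ± 0.08. Ero1l, an oxidase of the endoplasmic reticulum, rose by 1.63, and Bnip3, which drives removal of mitochondria, by 1.70. Hilpda, an inhibitor of fat breakdown in lipid droplets, was at 1809 and 2687 in rich and 713 and 1139 in negative cells, and rose by 1.45. The glucose transporter Slc2a1 was at 846 and 763 against 429 and 451 (1.02 ± 0.09) and the angiogenic factor Vegfa at 275 and 190 against 167 and 95.7 (1.01 ± 0.09). Adm, the vasodilator adrenomedullin, changed most, by 3.18, but from 6 and 13 UMIs in the negative sums to 36 and 126 in the rich sums. Hif1a, the oxygen-sensing transcription factor itself, was at 431 and 467 against 378 and 430. Its log2 change of 0.31 ± 0.08 lost its call with DESeq2, without the block and without scaling factors (0.15). Rora, at 4 and 6 UMIs in the rich sums, was the member that did not pass (-1.24 ± 0.53).

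Glycolysis followed the same direction, with 13 of 16 tested genes higher and 1 lower, against 17.8% and 11.9% of all genes. The median was 0.98. Hk2, the hexokinase that traps glucose, was at 759 and 708 CPM in rich and 290 and 246 in negative cells (1.62 ± 0.08). Ldha, which makes lactate, was at 970 and 1119 against 387 and 476 (1.44 ± 0.08). Pfkl and Tpi1, enzymes of the upper and middle pathway, rose by 1.49 and 1.47. Slc16a3, the lactate exporter, was the member that fell (-0.28), and the glucose transporter Slc2a3 did not pass (0.03 ± 0.08). Respiratory chain genes went the other way: 13 of 24 fell and 1 rose, against 11.9% and 17.8% of all genes, and the median was -0.47. Cox6c, a subunit of cytochrome oxidase, fell by 0.71 on the log2 scale, while Cycs, cytochrome c, rose by 0.81. The count of lower respiratory genes was 5 with DESeq2, 4 without the block, 5 without cells holding phagocyte marker UMIs and 18 without scaling factors.

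**Figure D2:**
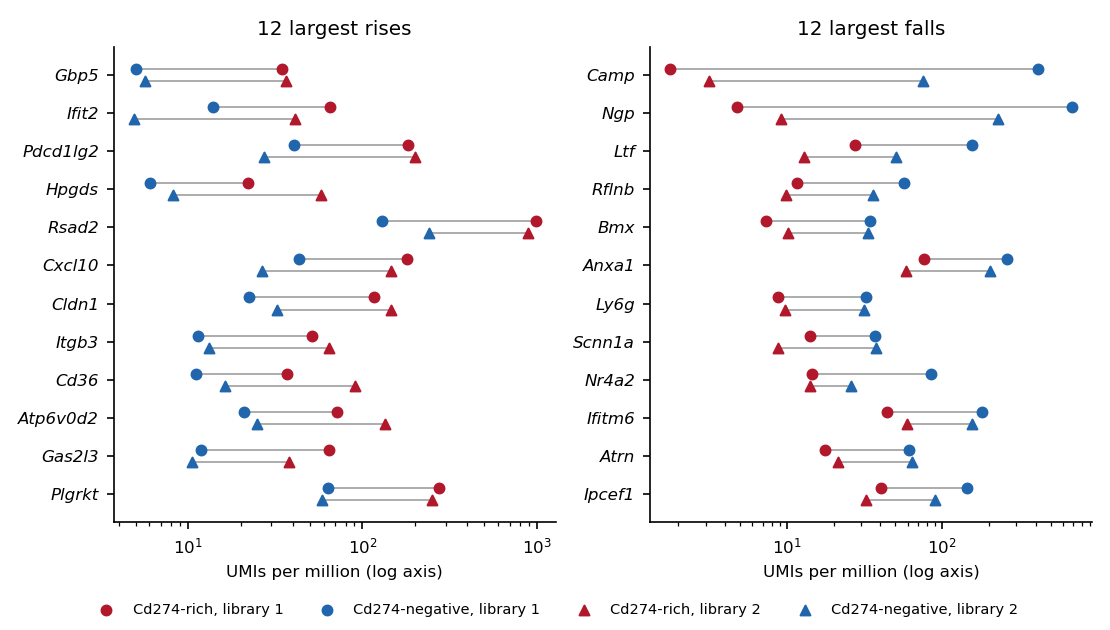
CPM (horizontal, log axis) of the 12 genes with the largest rise (left) and fall (right) in the Cd274-rich sums. They were taken among genes that passed with a mean of at least 20 CPM, leaving out markers of other cell types. Values are from each of 2 sorted tumor libraries (circles and triangles), and a line joins rich (red) and negative (blue) of a library. For Pdcd1lg2 the rich sums are at 182 and 200 and the negative sums at 40.3 and 27.4, and Camp and Ngp show the widest gaps in the other direction.

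Other genes with the largest changes lay outside these lists. Cldn1, which encodes the tight junction protein claudin 1, was at 116 and 146 CPM in rich and 22.4 and 32.4 in negative cells (2.41 ± 0.12). Itgb3, the beta-3 integrin chain, was at 51.4 and 64.4 against 11.3 and 13.2, and Atp6v0d2, a subunit of the vacuolar proton pump, at 71.9 and 136 against 20.9 and 24.7. Both Hpgds, the hematopoietic prostaglandin D synthase (2.64 ± 0.22), and Gas2l3, a cytoskeletal linker (2.28 ± 0.18), rose as well. For Hpgds the rich sums were at 22.2 and 57.6 and the negative sums at 6.05 and 8.19, so library 2 showed the larger gap. Of genes that fell, the tyrosine kinase gene Bmx was at 7.31 and 10.2 in rich and 34.3 and 33.2 in negative cells (-1.76 ± 0.20). Ifitm6, an interferon-induced transmembrane gene, fell by 1.53 on the log2 scale, Rflnb, an actin-binding regulator, by 1.91, the sodium channel subunit Scnn1a by 1.60, and Atrn, attractin, by 1.52. Ipcef1 was at 40.3 and 32.2 against 144 and 90.1 and also fell. In none of these genes did rich and negative sums overlap. The calls of Bmx and Scnn1a were lost without cells that held phagocyte marker UMIs (-0.99 and -0.87).

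Products by which myeloid cells restrain T cells other than surface ligands showed no common direction. Of 15 such genes tested, 5 rose and 1 fell, against 17.8% and 11.9% of all genes, with a median of 0.02. Il1rn, the interleukin-1 receptor antagonist, was at 2127 and 1885 CPM in rich and 990 and 820 in negative cells (1.31 ± 0.08). Nos2, the inducible nitric oxide synthase, rose by 1.56, from 13.1 and 14.2 to 30.8 and 41.0 CPM, and Tgfb1 by 0.66. Ptges, a prostaglandin E synthase, rose by 0.67 with an adjusted p of 0.0469 in edgeR's test and did not pass with DESeq2. Ptgs2, cyclooxygenase 2, was at 2063 and 1698 in rich and 1975 and 1828 in negative cells and did not pass (0.14 ± 0.08). Arg1, which depletes arginine, was at 34.3 and 35.2 against 3.28 and 74.2, so the libraries went in opposite directions (0.22 ± 0.53, adjusted p = 0.791 in edgeR's test). Single cells held most of these counts. In library 1 a single cell had 118 of the 136 Arg1 UMIs of the rich sum. In library 2 a single cell had 430 of the 471 UMIs of the negative sum. With another random draw of matched negative cells the Arg1 change was -1.77 and passed as lower, and with no matching it was 2.21 and passed as higher.

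Chemokine and cytokine genes rose in 12 of 21 cases and fell in 1, against 17.8% and 11.9% of all genes, with a median of 0.49. Without the library block 4 rose. Ccl4 and Ccl3, inflammatory chemokine genes, were at 10169 and 9950 and at 8553 and 8650 CPM in rich cells. In negative cells Ccl4 was at 4680 and 5430 and Ccl3 at 4452 and 5021, and the log2 changes were 1.15 and 1.02. The inflammatory cytokine Il1a rose by 0.85, Il15, a growth factor of NK and CD8 T cells, by 0.85, Tnf by 0.67 and the neutrophil attractant Cxcl2 by 0.47. Il1b fell by 0.28 on the log2 scale, at 8399 and 6927 in rich against 10844 and 9826 in negative cells. Ccl2, the monocyte attractant, rose by 1.20 on 22 and 93 UMIs in the negative and 98 and 121 in the rich sums, a call that DESeq2 did not make.

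Of 25 AP-1 and immediate early genes, 6 rose and 11 fell, against 17.8% and 11.9% of all genes. The stress-responsive factors Maff (1.03), Atf3 (0.99) and Jun (0.70) were among the risers. Nr4a1 and Nr4a2, orphan nuclear receptors, fell by 0.82 and 1.55 on the log2 scale, and Egr3 by 0.97. Nr4a2 was at 14.6 and 14.1 CPM in rich and 85.0 and 26.0 in negative cells. The number of lower members was 5 with DESeq2, 4 without the block and 16 without scaling factors. NF-kB subunits and feedback genes rose in 8 of 20 cases and fell in 2 (median 0.24), against 17.8% and 11.9% of all genes. The inhibitor Nfkbib was at 0.77 and the tumor necrosis factor-induced gene Tnfaip2 at -0.66.

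Genes of the unfolded protein and integrated stress responses rose in 13 of 21 cases, against 17.8% of all genes (median 0.66). The lectin chaperone Canx rose by 1.10, the secreted factor Manf by 0.94 and the transcription factor Atf4 by 0.90. With DESeq2, without the block or without phagocyte marker cells 8 rose. Heat shock and chaperone genes rose in 7 of 14 cases, against 17.8% of all genes. Hsp90aa1 was at 1023 and 1026 CPM in rich and 402 and 470 in negative cells (1.39 ± 0.09). Hspa1a and Hspa1b, the inducible HSP70 pair, rose by 1.43 and 1.33. These are near-identical copies, so reads may be shared between them.

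In the MHC class I pathway 4 of 17 genes rose and 1 fell, near the 17.8% and 11.9% of all genes, with a median of 0.09. Nlrc5, the transactivator of class I genes, rose by 1.21, the peptide transporter subunit Tap1 by 0.93 and the light chain B2m by 0.59, whereas the heavy chain H2-D1 fell by 0.36 on the log2 scale. Survival and death genes rose in 13 of 23 cases and fell in 2, against the same shares of all genes. Gadd45b, a stress-induced survival factor, was at 1422 and 1339 against 777 and 585 (1.19 ± 0.09), and Cflar, which blocks caspase 8, rose by 0.71. Bcl2 did not pass (0.97 ± 0.44, 17 and 20 UMIs in the rich sums).

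**Figure D3:**
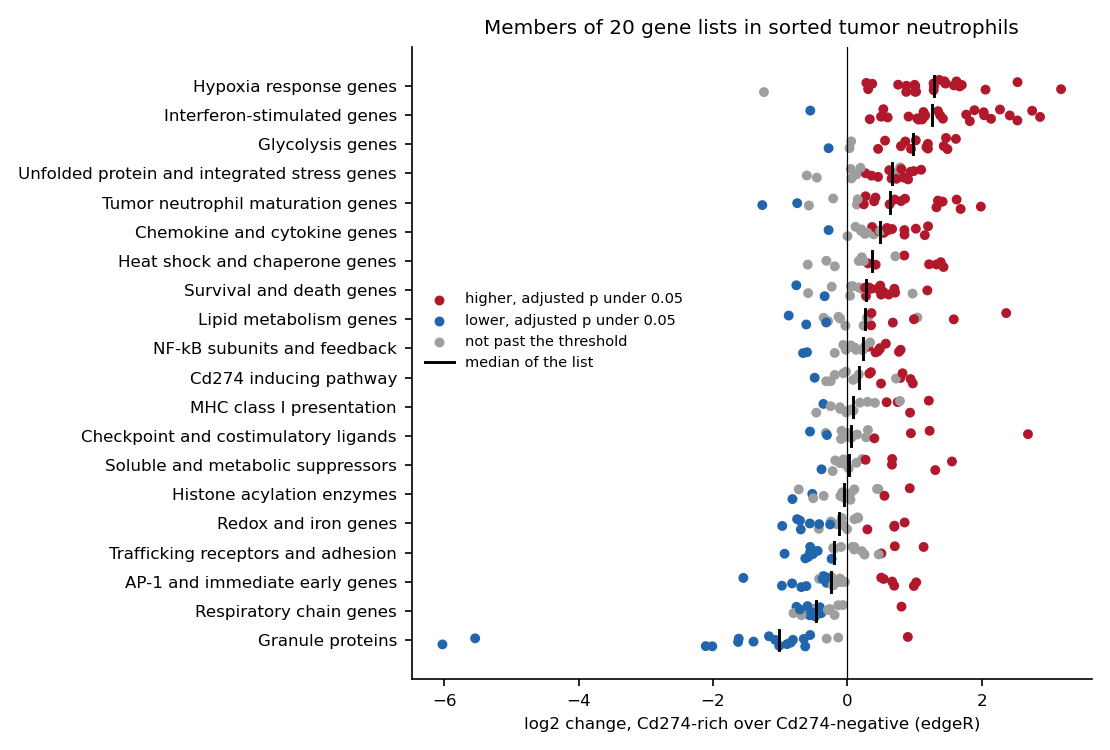
Log2 change in sorted tumor neutrophils (horizontal axis, Cd274-rich over negative, edgeR) of each tested member of 20 gene lists (rows, ordered by median, black bar). Red points passed as higher, blue as lower and grey did not pass; hypoxia, interferon and glycolysis lists lie mostly to the right, with medians of 1.29, 1.25 and 0.98, and granule proteins to the left at -1.01.

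Genes linked to maturation of tumor neutrophils were mostly higher, 15 of 21 with 2 lower, against 17.8% and 11.9% of all genes. Their median was 0.63. Without the block 9 rose. Cstb, a cathepsin inhibitor, was at 1561 and 1884 CPM in rich and 574 and 667 in negative cells (1.63 ± 0.08), and the protease Ctsb at 752 and 697 against 306 and 298. Gpnmb, a lysosomal glycoprotein, rose by 1.99 ± 0.27 and differed more in library 2 (85.0 against 12.9) than in library 1 (62.3 against 32.3). Siglecf, a sialic acid-binding lectin used to mark some tumor neutrophils, fell by 1.27 on the log2 scale, at 11.1 and 5.34 in rich and 30.5 and 14 in negative cells. Tfrc, the transferrin receptor, was at 78.2 and 81.7 against 32.8 and 36.8, a log2 change of 1.35 ± 0.12.

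Of 21 trafficking receptor and adhesion genes 3 rose and 9 fell, against 17.8% and 11.9% of all genes. Of these genes 5 were lower by DESeq2 and 3 without the block. Selplg, the selectin ligand PSGL-1, fell by 0.93 on the log2 scale, Itgb2, the common beta-2 integrin chain, by 0.63, and Cxcr2, the main chemokine receptor of circulating neutrophils, by 0.58. Cxcr2 was at 546 and 614 CPM in rich and 878 and 1065 in negative cells. Hcar2, a receptor for niacin and beta-hydroxybutyrate, and Ptafr, the receptor of platelet-activating factor, rose by 1.14 and 0.71. Cxcr4, which holds neutrophils in the marrow, did not pass (-0.09 ± 0.08).

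Granule protein genes had the lowest median of the 20 lists. Of 19 tested (Mpo, Elane and Ctsg, made by precursors, had too few counts) 16 fell and 1 rose, with a median of -1.01. Of all genes 11.9% fell and 17.8% rose. Without the block 8 granule genes fell, and without phagocyte marker cells 10 of 16. Hp, haptoglobin, was at 287 and 395 CPM in rich and 964 and 1022 in negative cells (-1.40 ± 0.09), and Lyz2, lysozyme, at 270 and 197 against 703 and 473. Mmp8, the neutrophil collagenase, fell by 1.01 on the log2 scale, and Ly6g, the surface antigen by which mouse neutrophils are usually identified, by 1.62. Olfm4, which marks a subset of neutrophils, was the member that rose (0.90).

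The largest falls among the named genes were in Camp (-6.03 ± 0.34) and Ngp (-5.54 ± 0.29). They encode proteins of secondary granules made before neutrophils leave the marrow, and their falls rested on few cells. Camp had 1644 and 478 UMIs in the negative sums and 7 and 20 in the rich sums. Of the negative UMIs 10 cells held 99.9% and 99.6%, and a single cell held 675 in library 1 and 467 in library 2. Any Camp UMI was found in 12 negative cells of each library, and in 7 and 10 rich cells. For Ngp 10 cells held 97.8% and 93.6% of the 2721 and 1457 UMIs, and a single cell held 840 and 759. Ltf, lactoferrin of the same granules, fell by 2.11 on the log2 scale with all cells, but its change was -0.14 and did not pass once cells with phagocyte marker UMIs were left out. By contrast Anxa1, the pro-resolving annexin, fell by 1.63 on 1037 and 1297 UMIs in the negative and 304 and 373 in the rich sums.

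Redox and iron genes had 4 of 20 higher and 7 lower, against 17.8% and 11.9% of all genes. The peroxidases Gpx1 (-0.97) and Gpx4 (-0.75) and the oxidase subunit Ncf1 (-0.71) were lower and the iron exporter Slc40a1 (0.85) higher. Lipid genes had 6 of 18 higher and 3 lower, against the same shares of all genes. Cd36, a scavenger receptor for fatty acids, rose by 2.37, yet 10 cells held 92.5% and 87.9% of its UMIs in the rich sums, and without cells that held a C1q UMI its change was 0.54 and did not pass. Srebf2, the regulator of cholesterol synthesis, rose by 1.58 and Fabp5, a fatty acid carrier, by 0.99, while Alox5, which starts leukotriene synthesis, fell by 0.87 on the log2 scale. Histone acylation enzymes had 2 higher and 2 lower of 16, near the shares of all genes (17.8% and 11.9%), among them the deacetylase Sirt2 (0.93) and the acetyltransferase Kat2b (-0.82).

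Genes beside Cd274 on chromosome 19 were also looked up, after their values had been seen. Plgrkt, which encodes a plasminogen receptor, lies head to head with Cd274 on the minus strand at chr19:29348599-29367390, 65 bases away. It was at 273 and 251 CPM in rich and 63.5 and 58.7 in negative cells, a log2 change of 2.26 ± 0.09. Further out, Ric1 was at 115 and 108 against 61.8 and 55 (1.10), while Jak2, 54375 bases upstream, did not pass. The gene bodies as annotated do not overlap, and no label says whether the counting by the authors used strand.

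The differences were graded over the Cd274 count, without matching on depth. From 0 to 5 or more Cd274 UMIs (classes 0, 1, 2, 3, 4 and 5 or more), summed hypoxia response genes were at 9508, 11201, 11111, 13072, 13726 and 14945 CPM in library 1. In library 2 they were at 10642, 12600, 14452, 14356, 15022 and 17196. Both end classes were the extremes of each series, and each series had 1 small step down, from 1 to 2 UMIs in library 1 and from 2 to 3 in library 2. Interferon-stimulated genes went from 3412 to 6689 and from 3911 to 6030 between the end classes, and granule proteins from 16287 to 8219 and from 21928 to 12529.

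The threshold of 3 UMIs lay within this gradient and not at a gap. Just outside it, 241 and 469 cells had exactly 2 Cd274 UMIs, and just inside it 178 and 337 cells had exactly 3. Pdcd1lg2 was at 127 and 102 CPM in cells with 2 and at 121 and 142 in cells with 3. P4ha1 was at 443 and 518 with 2 and 606 and 539 with 3, and Rsad2 at 508 and 524 with 2 and 598 and 596 with 3. Median depth was between 3678 and 4272 UMIs per cell over all 6 classes in both libraries, highest with 5 or more.

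**Figure D4:**
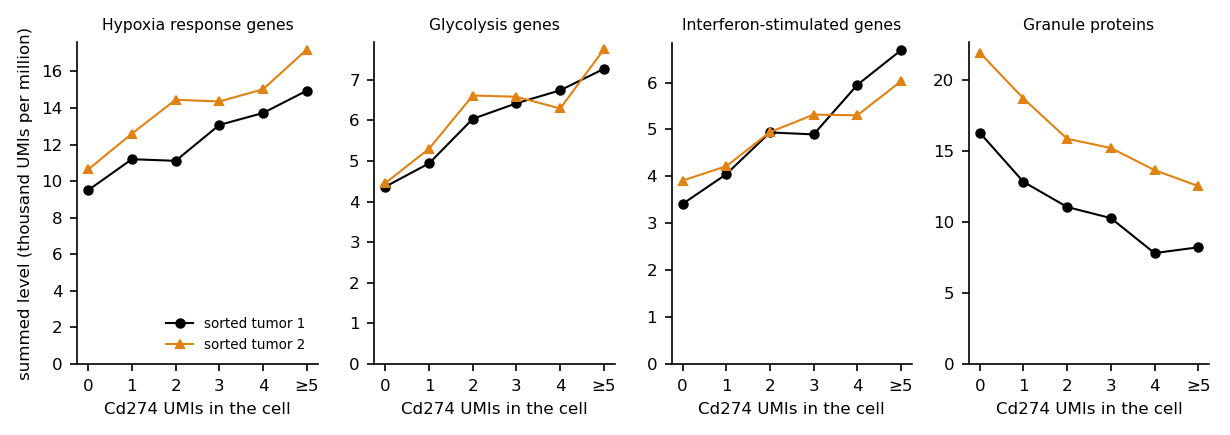
Summed level of 4 gene lists (units of 1000 CPM, vertical axis from 0) by number of Cd274 UMIs in the cell (horizontal axis), for sorted tumor libraries 1 (black circles) and 2 (orange triangles). Hypoxia response genes go from 9508 and 10642 CPM at 0 Cd274 UMIs to 14945 and 17196 at 5 or more, and granule proteins from 16287 and 21928 down to 8219 and 12529.

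The spread of the hypoxia and interferon groups over cells was also described. Before thinning, interferon-stimulated genes summed to 6276 and 6170 CPM in rich and 3353 and 3939 in negative cells, and hypoxia response genes to 15236 and 17068 against 9454 and 10611. Each cell was then thinned to 1000 UMIs, which left out 5 rich and 7 negative cells of library 1 and 13 and 15 of library 2. In thinned cells, the median cell held 14 hypoxia response UMIs among rich and 7 among negative cells of library 1, and 16 and 9 in library 2. The median cell held 2 interferon-stimulated UMIs in both classes of both libraries. The cell at the 90th percentile held 18 such UMIs among rich cells in each library, against 8 and 9 among negative cells. At least 5 interferon-stimulated UMIs were found in 33.4% and 34.1% of rich and 22.3% and 28.0% of negative cells. Cells with at least 5 UMIs of both lists were 28.6% and 31.9% of rich and 13% and 20.2% of negative cells, and cells with 5 of neither 5.0% and 3.38% against 19.6% and 13.9%. No test was made of these shares. Negative cells of the same library at matched depth are the class compared with, and they do not measure free RNA.

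Neutrophil identity and other cell types were checked with the same sums. The summed level of 12 neutrophil markers was 70170 and 75389 CPM in rich and 109654 and 115962 in negative cells, and 9 of the 10 that the cell rule did not use were lower, all but Csf3r. S100a8 and S100a9, which the cell rule used and which are therefore given with no test, made up 5.54% and 5.89% of UMIs in rich and 8.65% and 8.97% in negative cells. Macrophage markers summed to 620 and 625 in rich and 862 and 564 in negative cells, with Cd68 the only higher one of the 6 tested besides the C1q genes, and cells with a C1q UMI were 25.4% and 29.2% against 26.0% and 26.9%. Microglia markers summed to 333 and 302 against 342 and 285. T or NK markers were at 4.03 and 4.24 against 8.32 and 7.09. Monocyte markers were lower in rich cells, at 932 and 1193 against 2196 and 2349, most of it Chil3, which neutrophils also express. The eosinophil, platelet, mast cell or basophil, B or plasma cell and erythroid lists each summed to at most 33.5 CPM.

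By summed level, dendritic cell markers were higher in rich cells in library 2 alone, and stromal markers in both libraries. Dendritic cell markers summed to 98.6 and 197 CPM in rich and 121 and 56.2 in negative cells; Cd209a was at 0 in all 4 sums. H2-Ab1 and H2-Aa, class II MHC genes, rose by 1.75 and 1.55, with library 2 alone showing the difference in level (H2-Ab1 49.2 against 7.09, and 16.6 against 15.6 in library 1). A single cell held 170 of the 313 H2-Ab1 and 87 of the 207 H2-Aa UMIs of the library 2 rich sum. Cells with an H2-Ab1 UMI were 5.19% and 6.04% of rich and 2.54% and 2.30% of negative cells. For H2-Aa they were 1.59% and 3.42% against 1.48% and 1.12%. Endothelial, stromal or tumor markers summed to 111 and 142 against 38.6 and 39.5, mostly Pecam1, an adhesion molecule that leukocytes also carry (1.90); Cdh5 and Olig2 were at 0 in all 4 sums. What part these markers have in the results was not tested. Cells with a high doublet score were 3.49% and 5.98% of rich and 3.81% and 3.88% of negative cells. With those cells removed, 27 of 28 interferon-stimulated and 24 of 24 hypoxia response genes tested still rose. With cells holding any phagocyte marker UMI removed, 22 of 26 and 22 of 23 rose.

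The CD45+ tumor libraries, which the choice of the classes did not use, gave the same comparison in fewer cells. Neutrophils were kept there by the same rule and, in addition, only where neutrophil marker UMIs exceeded phagocyte marker UMIs, which left 532 and 733. Cd274-rich cells made up 14.3% and 22.4%. Median depth was 1652 and 2566 UMIs per cell, against 3891 and 3901 in the sorted tumor libraries, so these shares are not comparable with the sorted ones. In libraries 1 and 2, 65 and 157 matched cells of each class were summed. Of 4090 genes tested with edgeR, 221 (5.4%) were higher and 117 (2.86%) lower, 8.26% together. Of the 220 higher genes also tested in the sorted libraries, 205 (93.2%) were higher there too, which is 16.7% of the 1229 higher in the sorted libraries among those genes. For lower genes it was 100 of 116 (86.2%, and 13.7% of 731).

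Pdcd1lg2 had 20 and 87 UMIs in the CD45+ rich sums and 3 and 10 in the negative sums, a log2 change of 2.97 ± 0.46. P4ha1 was at 512 and 521 CPM against 62.4 and 147 (2.18 ± 0.31), Ldha at 743 and 802 against 270 and 435 (1.11 ± 0.25) and Rsad2 at 1942 and 749 against 243 and 211 (2.33 ± 0.24). All of these rich sums lay above the negative sums. By list, 12 of 24 interferon-stimulated, 9 of 20 hypoxia response and 7 of 16 glycolysis genes rose, with medians of 1.00, 0.73 and 0.74 (-0.03 for all genes). Of 13 granule genes tested 6 fell and 1 rose. Among all genes of these libraries 5.4% rose and 2.86% fell. None of 15 genes of the inducing pathway passed with edgeR (1 at an unadjusted p under 0.05, and none with DESeq2): Jak2 was at 0.05 ± 0.27. DESeq2 made fewer calls, 2, 3 and 2 in the interferon, hypoxia and glycolysis lists. Without the library block no gene of these 3 lists passed, and 13, 10 and 8 were higher at an unadjusted p under 0.05.

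The difference between the sorted and CD45+ changes was tested directly. Of 9597 genes, 13 (0.135%) had a more positive change in the sorted libraries and 1 (0.0104%) a more negative one, 0.146% together. Cd36 (2.40), Spp1 (1.19) and Hilpda (0.98) were among the 13. No interferon-stimulated gene of 28 passed with edgeR or DESeq2 (5 and 3 with a more positive change at an unadjusted p under 0.05).

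In blood few neutrophils carried Cd274, so cells with 1 or more UMI (243 of 3029 and 458 of 5192) were compared with cells with 0, and the same threshold was applied in the tumor. Cd274 stood at 28.1 and 36.4 CPM over all kept blood neutrophils and at 707 and 651 in the tumor. Pdcd1lg2 had 37 and 85 UMIs in all kept blood neutrophils, 2.78 and 4.12 CPM, and was too rare to test there. Of 7453 genes tested in blood, 108 (1.45%) were higher and 45 (0.604%) lower in Cd274-positive cells, 2.05% together. In the tumor at this threshold 1784 (16.4%) of 10904 were higher and 1252 (11.5%) lower, 27.8% together.

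Interferon-stimulated genes rose in blood too, 19 of 25 against 1.45% of all genes, with a median of 1.32. With DESeq2 2 passed (18 at an unadjusted p under 0.05), and without the block 5. Rsad2 was at 149 and 200 CPM in Cd274-positive and 36.5 and 75.1 in negative blood neutrophils (1.55 ± 0.14). Irf1 was at 289 and 367 against 189 and 195 (0.73 ± 0.09). Granule genes fell in 14 of 19 cases, against 0.604% of all genes, and in 6 with DESeq2 and 3 without the block. Ltf had 1 and 7 UMIs in the positive and 980 and 431 in the depth-matched negative sums, or 812 and 206 CPM. Over all Cd274-negative blood neutrophils, unmatched, Ltf was at 128 and 56.7 CPM, so the matching raised the negative level and the size of the change.

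Markers of other cells were also checked in blood. Dendritic cell markers summed to 200 and 231 CPM in positive and 30.7 and 241 in negative cells, so they were higher in library 1 alone, and 2 of 5 tested passed as higher. H2-Ab1 had 39 and 59 UMIs in the positive and 0 and 48 in the negative sums; Cd209a and Fscn1 were at 0 in all 4 sums. B or plasma cell markers summed to 58.5 and 74.6 CPM against 5.80 and 47.9, with 1 of 4 tested higher and Jchain at 0 in all 4 sums, and macrophage markers to 508 and 517 against 283 and 434. What part these cells have in the blood results was not tested.

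The hypoxia and glycolysis lists gave no call in blood. No hypoxia response gene of 19 and no glycolysis gene of 16 passed with edgeR or DESeq2, with medians of 0.01 and -0.08; at an unadjusted p under 0.05 edgeR had 1 and 3 lower and none higher. Ldha was at 128 and 122 CPM in Cd274-positive and 159 and 127 in negative blood neutrophils, and Slc2a1 at 122 and 78.5 against 90.3 and 86.6. P4ha1 had 10 and 13 against 7 and 10 UMIs (0.38 ± 0.59), so a small change was not detectable at this depth.

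The tumor and blood changes were then set against each other in one fit over 8 sums. Of 10502 genes, 364 (3.47%) had a more positive change in the tumor and 263 (2.5%) a more negative one, 5.97% together. In the hypoxia list 13 of 24 were more positive, with a median difference of 0.99. Of these 24, Adm, Ak4, Ankrd37, Pdk1 and Hilpda had too few counts to be tested in blood alone; of the other 19, 12 were more positive, with a median of 0.98. The glycolysis genes were all tested in blood, and 11 of 16 were more positive, with a median of 0.86. Ldha changed by 1.18 in the tumor and by -0.22 in blood, a difference of 1.43 ± 0.13 (adjusted p = 7.93e-06, edgeR). Bnip3 (1.54), Ero1l (1.55), Hk2 (1.03), Slc2a1 (0.76) and Hif1a (0.50) also differed, whereas P4ha1 (1.19 ± 0.42) and Vegfa (0.80 ± 0.28) did not pass. The hypoxia count was 8 with DESeq2, 7 without blood library 2, and 0 without the library blocks (15 at an unadjusted p under 0.05).

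Of 28 interferon-stimulated genes none passed with a more positive change in the tumor (3 at an unadjusted p under 0.05, and none with DESeq2). A more negative change passed for 1, Ifitm1 (-0.48), and the median difference was -0.19. Of all genes 3.47% were more positive and 2.5% more negative. Ifit2, Cxcl10 and Gbp3 had too few counts to be tested in blood alone. Over the other 25 interferon-stimulated genes the median difference was -0.13. The interval is wide for single genes: Rsad2 differed by 0.61 ± 0.25 and Isg15 by -0.30 ± 0.17, and neither passed. With tumor library 2 left out, 4 interferon genes were more positive in the tumor. Plgrkt, the neighbour of Cd274, changed by 1.93 in the tumor and 0.41 in blood, a difference of 1.53 ± 0.24 that passed. Total UMIs were matched within each library, but the Cd274 level of positive cells was not matched between tissues, so the size of the changes is not comparable beyond this threshold.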

How the data were processed

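The 6 libraries were made with the 10x 3′ chemistry, 20000 cells loaded per lane, per the labels' protocols. The authors deposited a matrix of UMI counts per gene and cell for each library, made with Cell Ranger 7.1.0 on the mm10 build, per the submitters' processing notes; no gene annotation or strand setting is named. All counts are as deposited, and totals per library ran from 13945799 to 129422458 UMIs over all barcodes.

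Cells were kept and classed by the rule in the opening (numpy 2.4.6, scanpy 1.11.5), with no removal of doublets. Scrublet's automatic threshold marked 0 cells in the tumor libraries, so an alternative removed the highest-scoring cells instead, at 0.8% per 1000 cells. Cells were drawn with a fixed random seed. Sums per library and class were tested with edgeR 4.0.16 (TMM scaling, its filter on low counts, quasi-likelihood test) in R 4.3.3, with library as a block: both classes are separate cells of the same library, and sharing the library pairs them. With 4 sums 1 residual degree of freedom was left, so the spread leans on the trend over all genes. Differences between tumor and blood, or between sorted and CD45+ libraries, were fitted as an interaction over 8 sums with 2 residual degrees of freedom. Adjusted p-values are Benjamini-Hochberg over all genes tested.

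On simulated counts with 200 changed genes the sorted tumor test recovered 61% of 2-fold and 92% of 4-fold changes over 9520 genes, with 8 false calls. The CD45+ test recovered 34% and 82% over 3806 genes, and the test of sorted against CD45+ libraries 5% and 43% over 9176.

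Named genes included the 12 largest rises and 12 largest falls that passed, with a mean of at least 20 CPM and 1 sign in both libraries. Markers of cell types other than neutrophils and genes named Gm, Rik, mt-, Rpl or Rps were left out of these. Added were up to 4 members of each of 20 lists with the largest change, and 16 by name, 107 genes in all. Other genes named were chosen after their values were seen. The members and lists were chosen with earlier results of these data known. Alternatives were RLE scaling, no scaling factor, DESeq2 1.42.0, no low-count filter, no library block, other Cd274 thresholds, no or other matching, another seed, stricter cell rules, cells without C1q or phagocyte marker UMIs, and each library left out. Those with no scaling factor, without phagocyte marker UMIs and with 3 or more Cd274 UMIs in blood were chosen after seeing the data. Upstream sequences are from RefSeq (GRCm38.p6).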

Additional observations from a re-analysis of the deposited data

Results flagged for a closer look

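These results differed between 2 settings under the same comparison by a test of the difference itself (edgeR interaction). Between sorted tumor and sorted blood neutrophils, 364 genes had a more positive and 263 a more negative change with Cd274 in the tumor. Between the sorted and CD45+ tumor libraries the counts were 13 and 1. The 13 were Cstdc5, Agbl3, Serpinb2, Dip2c, Cd36, Tnfrsf9, Pdpn, Dab2, Hsd11b1, Inhba, Pid1, Spp1 and Hilpda, and the 1 was Polr2l, all named after their values were seen. Cstdc5, Agbl3, Serpinb2 and Polr2l had too few counts to be tested in the CD45+ libraries alone, so their differences are not interpretable as sizes. Cd36 changed by 2.37 in the sorted and 0.01 in the CD45+ libraries, and Spp1, osteopontin, by 1.33 and 0.12.

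Among named genes, Ldha differed between tumor and blood by 1.43, Slc2a1 by 0.76 and Hif1a by 0.50. Plgrkt, next to Cd274, differed by 1.53; it had 1386 and 2056 UMIs in positive and 359 and 611 in negative tumor sums, and 44 and 126 against 49 and 70 in blood. Tfrc, the transferrin receptor, differed by 1.61, on 9 and 8 UMIs against 10 and 13 in blood. Cldn1 differed by 2.17 and Hpgds by 7.34. For Hpgds the blood sums held 0 and 0 UMIs in positive against 2 and 2 in negative cells, too few for a blood change, so 7.34 is a fitted value and no measure of size. Ltf differed by 5.92, with 1 and 7 against 980 and 431 UMIs in blood and 179 and 144 against 679 and 373 in the tumor. The negative blood sums stood at 812 and 206 CPM for Ltf, against 128 and 56.7 over all Cd274-negative blood neutrophils, so the size depends on the matching on depth.

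Genes that fell more in the tumor included Anxa1, by -0.81. It had 639 and 849 UMIs in positive and 1530 and 1916 in negative tumor sums, and 1104 and 1828 against 1392 and 2024 in blood. Ipcef1 differed by -1.13, with 871 and 1263 against 811 and 1246 UMIs in blood and 326 and 426 against 868 and 899 in the tumor. Scnn1a differed by -0.94, Atrn by -0.84, Bmx by -0.65 and Rflnb by -0.57. Cmtm6 differed by -0.45, a call that was lost with DESeq2, with RLE scaling and when any 1 library was left out.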

How the results depend on the processing

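In the sorted tumor comparison, the number of higher genes was 983 with DESeq2, 948 with no replicate block and 881 without cells holding phagocyte marker UMIs. The number of lower genes was 381, 401 and 457 under these, 676 with no low-count filter and 1981 with no scaling factor. Arg1 turned to -0.79 at a threshold of 2 Cd274 UMIs and to -1.77 with another seed. Of the other values of named genes under an alternative, 1871 kept direction and side of the threshold, 60 lost the call, 25 gained it and 10 with no test moved beyond the replicate spread. Irf1, Hif1a, Ptges, Ccl2 and Cd83 lost it most often. With a library left out no residual degree of freedom remained, so those are values with no test. In the CD45+ libraries 32 genes were higher and 14 lower with DESeq2, 137 and 37 with another seed, 109 and 22 with the cell rule alone, and 63 lower with no filter. With no replicate block the counts were 0 and 0 (309 and 172 at an unadjusted p under 0.05). There Atp6v0d2 ranged from -0.27 without replicate 2 to 3.44 without replicate 1. In blood 3 were higher and 7 lower with DESeq2, 7 and 3 with no replicate block, and 28 and 4 at 3 or more Cd274 UMIs. At 1 or more UMI in the tumor, 855 and 325 passed with DESeq2 and 399 and 71 with no replicate block. For tumor against blood, 206 and 82 differed with DESeq2, and 2 and 0 with no replicate block (645 and 513 unadjusted). For sorted against CD45+ libraries, DESeq2 gave 0 and 0 (125 and 87 unadjusted), no replicate block 0 and 0 (217 and 184), no filter 21 and 27, and RLE scaling 10 lower. Leaving out a library gave 0 to 61 higher and 1 to 12 lower; 0 higher was without sorted tumor library 1 (81 unadjusted) and 61 without CD45+ library 1. The cause of these moves was not tested. The CD45+ and blood sums rest on 65 to 453 cells each, which limits their precision.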
